A study of Homo sapiens with 12 samples.

Results

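The genes described here encode the proteins of the mitochondrial ribosome. They were taken as the protein-coding genes whose symbol is MRPL or MRPS followed by a digit, and 78 of the 19907 protein-coding genes with transcripts in the deposited table met this rule. Of these, 51 encode proteins of the large subunit, 26 encode proteins of the small subunit, and MRPS36, despite its name, is known as a component of the 2-oxoglutarate dehydrogenase complex. The samples were HK-2 cells, an established immortalized line of human proximal tubule epithelium, grown for 72 h with no addition to the medium (control), or exposed over that time to suspended 2,8-dihydroxyadenine at 60, 120 or 240 ug/ml. 2,8-Dihydroxyadenine is a poorly soluble purine that crystallizes in the kidney when adenine phosphoribosyltransferase is lacking, and the series asks what it does to kidney epithelial cells. Each of the 4 groups held 3 RNA-seq libraries, 12 in all, from 1 cell line with no genotype or strain difference between groups. The cells expressed 5 of 5 epithelial markers, but only 3 of 12 proximal tubule markers (GGT1, SLC5A2 and PAX8) reached a mean of 1 in control, and LRP2, SLC22A6 and SLC22A8 were listed at 0.

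Mitochondria keep their own ribosome, which translates the few proteins encoded in mitochondrial DNA, all of them subunits of the respiratory chain and ATP synthase. Its RNA comes from the mitochondrial genome, whereas every one of its proteins is encoded in the nucleus, translated by cytosolic ribosomes and imported. Some of these proteins descend from those of the bacterial ribosome, and others were added in the mitochondrial lineage. Proximal tubule cells rely on oxidative phosphorylation to drive solute transport, so this machinery is of particular interest in them.

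Levels are the authors' deposited normalized signal, summed over the transcripts of a gene, a scale treated here as comparable between genes per unit of length because the library totals resembled those of TPM values. They are given per library in the order of the replicate numbers, or as mean ± SD (n = 3 libraries). Changes are log2 differences of value + 1 with the standard error (SE) of a limma model, and a gene was called at a Benjamini-Hochberg adjusted p under 0.05 over the 16789 genes tested. Read depth cannot be recovered from such a signal and is unknown for all libraries, and library totals of the signal ran from 791808 to 1228979. The labels do not state whether a group's libraries are from separate cultures, so p-values measure the spread between these libraries only, which may be technical. In bulk RNA, fewer cells carrying a transcript and less of it per cell cannot be told apart.

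In 2 libraries these genes stood apart from all genes as a set, and related gene sets moved the same way in them. The third library at 120 ug/ml held the highest value of its group for 73 of the 77 genes tested, whereas it was the highest for 37.2% of all genes tested. The second library at 240 ug/ml held the lowest value of its group for 75 of the 77, against 37.5% of all genes. The counts over the set and its classes are therefore also given without these libraries.

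In control cells the 77 genes tested spanned a mean level of 10.3 to 387, with a median of 64.6. Over all 12 libraries MRPL33, MRPL51 and MRPL3 were the highest of them, and MRPL57, MRPS22 and MRPS36 were the lowest. MRPL33, a small protein of the large subunit, was at 387 ± 43.8 in control, and MRPL51, a large subunit protein with no bacterial counterpart, at 273 ± 2.97. MRPL3, one of the core proteins of the large subunit, was at 175 ± 5.91. MRPS22, a mitochondria-specific protein of the small subunit, was at 10.3 ± 2.49. MRPL45, which helps to hold the ribosome at the inner membrane, was the only one of the 78 not tested: it was listed at 0.0 to 0.2 in all libraries although both of its annotated transcripts were in the table. The order of levels changed little with dose, with a Spearman rho across genes of 0.95 between control and 60 ug/ml and of 0.92 between control and 240 ug/ml.

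The mitochondrial ribosomal protein genes moved in both directions, with more of them lower than higher at 120 and 240 ug/ml. At 60 ug/ml, 8 of 77 were lower and 6 were higher than control. Over all genes tested, 10.0% were lower and 8.89% higher in that comparison. At 120 ug/ml, 19 were lower and 4 higher, where 20.8% of all genes were lower and 15.9% higher. At 240 ug/ml, 24 were lower and 5 higher, beside 23.5% and 19.7% of all genes. In this last comparison the share of these genes called lower was above the share of all genes and the share called higher was below it. The excess of lower genes did not hold without the second library at 240 ug/ml alone or with the trend on transcript length subtracted. It did hold without that library and the third at 120 ug/ml together, as given below. Their median log2 change was -0.13, -0.20 and -0.22 at the rising doses, and the median over all genes tested was -0.03 at each dose. Those 3 comparisons share the control libraries. Of the 77, 29 were lower at some dose, 9 were higher at some dose, and 39 were called at none. The like shares over all genes were not counted, so these numbers have no background beside them.

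**Figure D1:**
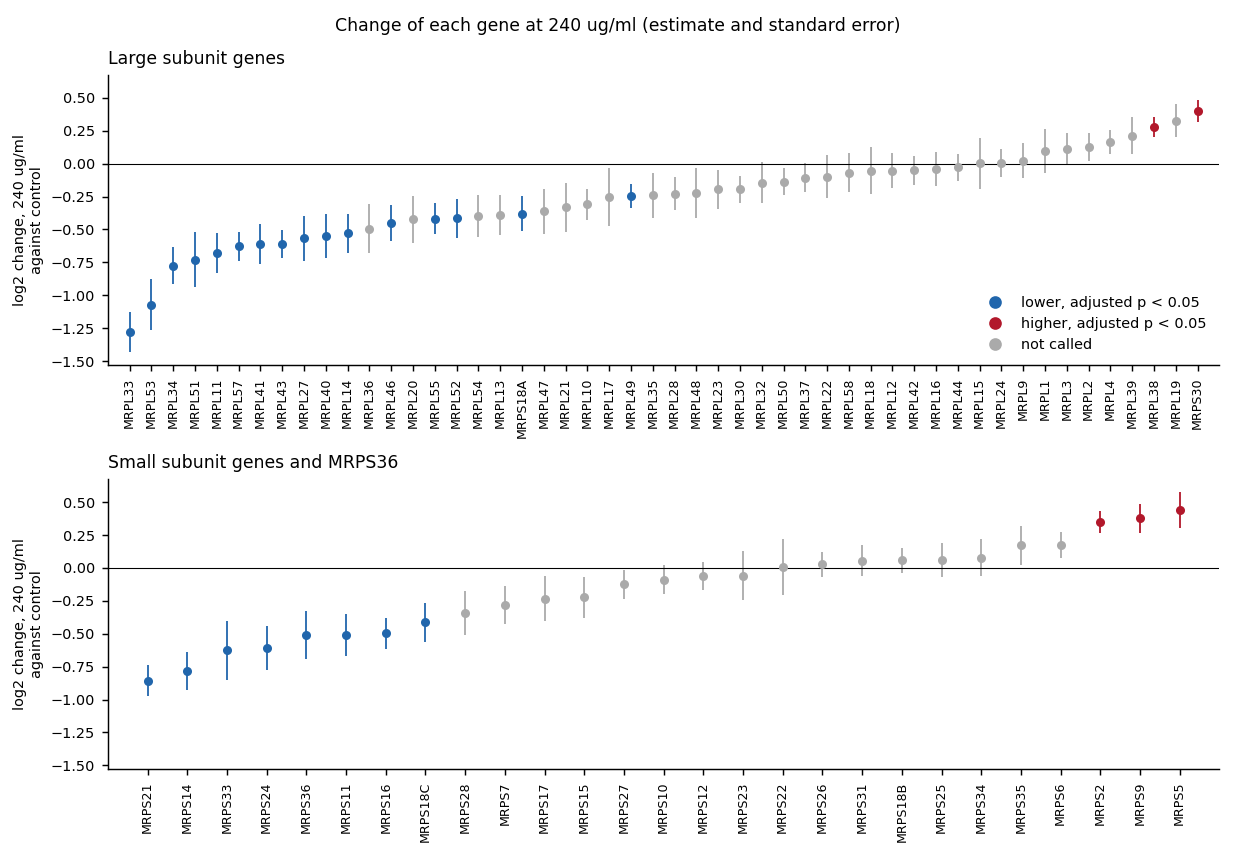
Log2 change of each of the 77 genes at 240 ug/ml against control (y axis), with the estimate as a dot and its SE as a bar, ordered by change within the large subunit (top) and the small subunit with MRPS36 (bottom). The 24 genes called lower (blue) start at MRPL33, the 5 called higher (red) are MRPL38, MRPS2, MRPS30, MRPS5 and MRPS9, and 48 genes were not called (grey).

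The number of lower genes rested in part on the libraries that stood apart. Without the third library at 120 ug/ml, 31 genes were lower at 120 ug/ml, with 18.8% of all genes lower, and the median change of the set was -0.35. Without the second library at 240 ug/ml, 13 of the 77 were lower and 7 higher at 240 ug/ml, and the median change was -0.06. Over all genes 19.7% were lower and 16.4% higher in that run, so the share of the set was then below the background in both directions. With the third library at 120 ug/ml left out as well, more genes were called lower at 240 ug/ml. These were 6 of 30 and 8 of 20 large subunit genes with and without a bacterial counterpart, 5 of 16 and 1 of 10 of the small subunit, and MRPS36. Over all genes 20.6% were lower in that run, so the share of the set called lower was then above the background. Scaling also mattered. When each library was set to an equal total, the median change of all genes became 0.14, 0.27 and 0.34 at the 3 doses. The share of called genes that were higher was 47.0%, 43.4% and 45.6% at the rising doses on the deposited scale, and 81.1%, 81.8% and 82.8% with equal totals. On that scale 5 of the 77 were lower and 30 higher at 240 ug/ml, beside 9.02% and 43.3% of all genes, and their median was 0.20. Relative to the median of all genes, theirs was -0.10, -0.16 and -0.20 at the rising doses on the deposited scale and -0.07, -0.12 and -0.13 with equal totals. A lower value below is therefore a statement on the deposited scale. Where equal totals end or turn it, this is said for named genes and for the classes of the set. Losses under the other alternatives are not listed for every gene.

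Between neighbouring doses no gene of the set was called with all libraries in. From 60 to 120 ug/ml, limma called 0 of 77 lower and 0 higher, with 13 at an unadjusted p under 0.05, and over all genes 1.61% were lower and 0.536% higher. With the third library at 120 and the second at 240 ug/ml left out, 13 of the 77 were lower in this step, beside 3.27% of all genes, and a replicate block gave 1 lower and 2 higher. From 120 to 240 ug/ml it called 0 of 77 in either direction, with 2 at an unadjusted p under 0.05, and 0% of all genes were lower or higher. An F statistic over the 4 groups called 31 of the 77, beside 42.7% of all genes tested and 6447 of the 12731 protein-coding genes tested. Without those libraries it called 55 of the 77.

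The sum of all 78 genes followed the same course on the deposited scale. It was 5598.7, 5854.2 and 5291.3 in the control libraries, and 4788.6, 5044.6 and 5334.2 at 60 ug/ml. At 120 ug/ml it was 4282.2, 4139.2 and 5442.6, and at 240 ug/ml it was 5120.7, 3813.3 and 4817.7. The groups overlapped at 60 and 120 ug/ml, where the third library of each lay within the range of control, and at 240 ug/ml all 3 libraries lay below control. As a share of the library's total signal the same sum did not go down: it was 0.469% ± 0.0168 in the control libraries and 0.516% ± 0.0299 at 240 ug/ml. Beside it, the genes of the cytosolic ribosome took 16.2% ± 1.51 of the signal in the control libraries and 9.53% ± 1.73 at 240 ug/ml. How far that shift sets the share of the mitochondrial genes was not tested.

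**Figure D2:**
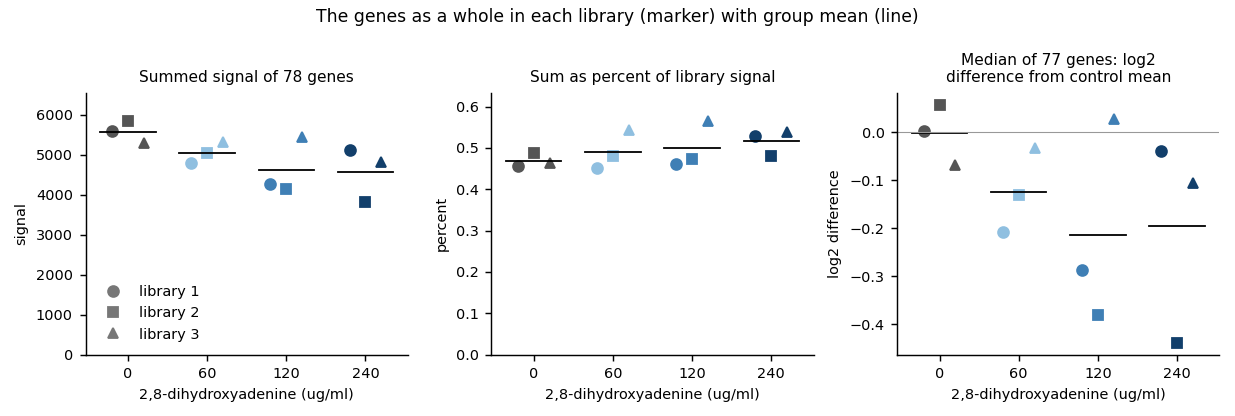
Views of the gene set in each library by dose in ug/ml (x axis): the summed deposited signal, that sum as a percent of the library's signal, and the median log2 difference of the 77 genes from the control mean, with markers for libraries 1 to 3 and a line for the group mean. The sum went from a mean of 5581 in control to 4584 at 240 ug/ml while its share of the signal went from 0.469% to 0.516%, and the third library at 120 ug/ml and the second at 240 ug/ml lie far from their group.

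Among the large subunit genes with a bacterial counterpart, 6 of 30 were lower and 0 higher at 240 ug/ml (11 at an unadjusted p under 0.05), with a median change of -0.21, a share lower that was below the 23.5% of all genes. Without the second library at 240 ug/ml, 4 were lower and 2 higher, beside 19.7% and 16.4% of all genes. With equal totals, 2 were lower and 10 higher at that dose, beside 9.02% and 43.3% of all genes. MRPL33 had the largest decrease of all the genes. It stood at 362.5, 437.2 and 360.4 in control, 192.6, 249.2 and 209.1 at 60 ug/ml, then 162.0, 153.1 and 203.5 at 120 ug/ml, and lastly 183.3, 131.4 and 163.9 at 240 ug/ml. Every treated library lay below every control library. Its log2 change was -0.83 (SE 0.15, adjusted p = 0.00381) at 60 ug/ml, -1.16 (SE 0.15, adjusted p = 0.000193) at 120 ug/ml and -1.28 (SE 0.15, adjusted p = 7.61e-05) at 240 ug/ml, and it was called at all 3 doses under all 22 alternatives run. Both of its main protein-coding transcripts were lower at 240 ug/ml than in control, MRPL33-201 at 122 ± 27.4 after 284 ± 28.1 and MRPL33-202 at 21.0 ± 2.65 after 71.3 ± 14.5. The gene spans chr2:27771717-27988087 on GRCh38 and overlaps RBKS on the other strand.

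MRPL11 and MRPL12 belong with MRPL10 to the flexible stalk of the large subunit, which recruits translation factors. MRPL11 was at 79.5, 82.8 and 80.2 in the control libraries and at 58.8, 39.2 and 54.4 at 240 ug/ml, a change of -0.68 (SE 0.15, adjusted p = 0.00415), and the groups did not overlap. That call was lost with equal library totals. MRPL12 went the other way at the lowest dose, from 110.3, 107.7 and 93.9 in control to 138.4, 131.3 and 151.1 at 60 ug/ml (0.43, SE 0.13, adjusted p = 0.0432). It was back at 109.3, 81.2 and 112.5 at 240 ug/ml, where it was not called. The rise of MRPL12 was lost when any 1 library of control or of 60 ug/ml was left out, or the second at 120 ug/ml. MRPL10 was at 51.6 ± 5.70 in the control libraries and 41.5 ± 4.66 at 240 ug/ml (adjusted p = 0.0534, not called). The difference between these 3 genes was not tested.

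MRPL4, a core protein near the exit tunnel, was at 73.4, 74.8 and 72.2 in control, 103.4, 94.2 and 102.3 at 60 ug/ml, then 87.5, 95.4 and 105.4 at 120 ug/ml, and lastly 86.8, 73.0 and 88.5 at 240 ug/ml. It rose at 60 ug/ml (0.44, SE 0.09, adjusted p = 0.00713) and at 120 ug/ml (0.38, SE 0.09, adjusted p = 0.00682), with no overlap with control. At 240 ug/ml its libraries overlapped control and it was not called (adjusted p = 0.164), although it was without the second library at that dose. MRPL47, the counterpart of the bacterial protein that sits by the tunnel exit, was called lower at 60 ug/ml and at no other dose: 74.1, 80.2 and 73.8 in the control libraries and 46.3, 49.6 and 52.6 at 60 ug/ml (-0.61, SE 0.17, adjusted p = 0.0299). Leaving out any 1 library of either group ended that call, as did equal totals (-0.41). MRPL19 had the highest change of this class at 240 ug/ml, 0.33 (SE 0.13, adjusted p = 0.0579), without passing the test. MRPL3 was not called at any dose, although 2 of the 22 alternatives called it higher at 240 ug/ml.

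Of the 20 tested large subunit genes found only in mitochondria, 10 were lower and 2 higher at 240 ug/ml, beside 23.5% and 19.7% of all genes. The median change of this class was -0.31. Without the second library at that dose, 5 were lower and 2 higher, beside 19.7% and 16.4% of all genes. With equal totals, 1 was lower and 7 were higher, beside 9.02% and 43.3% of all genes. MRPL53, a large subunit protein, was at 134.2, 139.0 and 109.8 in control, 83.4, 102.8 and 82.1 at 60 ug/ml, then 54.6, 54.3 and 80.9 at 120 ug/ml, and lastly 77, 46.1 and 60.5 at 240 ug/ml. All treated libraries lay below control. The change was -1.02 (SE 0.19, adjusted p = 0.00196) at 120 ug/ml and -1.07 (SE 0.19, adjusted p = 0.00112) at 240 ug/ml, called under all 22 alternatives at both doses, and -0.51 at 60 ug/ml (adjusted p = 0.0920, not called). MRPL51 was at 274.2, 275.3 and 269.7 in the control libraries and 204.2, 116.1 and 187.3 at 240 ug/ml (-0.73, SE 0.21, adjusted p = 0.0138). MRPL57 was at 10.9, 11.8 and 11.2 in the control libraries and 8.0, 5.9 and 7.1 at 240 ug/ml (-0.63, SE 0.11, adjusted p = 0.000926). The calls of MRPL51 and MRPL57 at 240 ug/ml ended with equal totals. MRPL58, a peptidyl-tRNA hydrolase built into the large subunit that can free stalled ribosomes, was at 35.7 ± 1.47 in the control libraries and 34.2 ± 4.84 at 240 ug/ml and was not called at any dose.

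MRPL38 and MRPS30, both proteins of the large subunit without a bacterial counterpart, were the 2 of this class that rose. MRPL38 was at 66.0, 72.9 and 61.5 in control, 93.2, 84.8 and 92.0 at 60 ug/ml, then 84.9, 85.4 and 94.5 at 120 ug/ml, and lastly 83.9, 79.5 and 80.0 at 240 ug/ml. All 9 treated libraries exceeded all 3 control libraries. Its change was 0.43 (SE 0.08, adjusted p = 0.00411), 0.40 (SE 0.08, adjusted p = 0.00227) and 0.28 (SE 0.08, adjusted p = 0.0131) at the rising doses. The call at 240 ug/ml was lost without the third control library (adjusted p = 0.0559). MRPS30, which carries a small subunit name but sits in the large subunit, was at 33.0, 35.4 and 33.8 in control, 39.3, 39.2 and 38.3 at 60 ug/ml, then 42.3, 36.5 and 44.3 at 120 ug/ml, and lastly 45.6, 42.2 and 48.2 at 240 ug/ml. Its change was 0.26 (SE 0.08, adjusted p = 0.0265) at 120 ug/ml and 0.40 (SE 0.08, adjusted p = 0.00207) at 240 ug/ml, and the second of these was called under all 22 alternatives. The call at 120 ug/ml was lost when the first or the third library of control or of 120 ug/ml was left out.

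**Figure D3:**
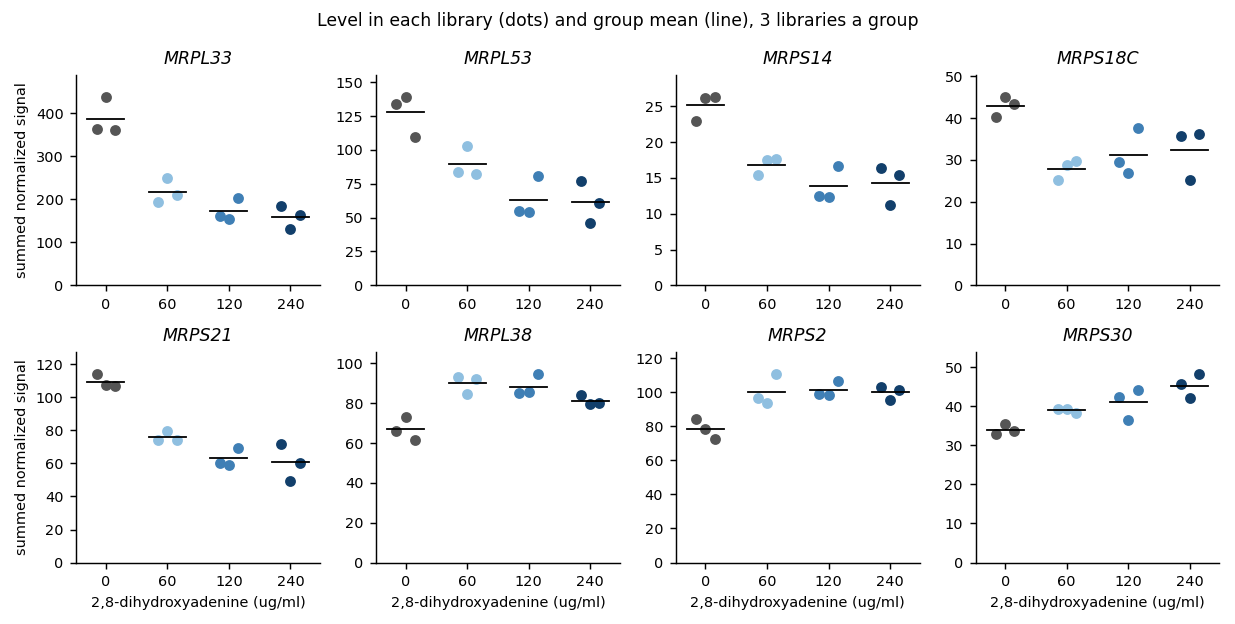
Summed normalized signal (y axis, from 0) of 8 genes in each library by dose in ug/ml (x axis), with dots for libraries 1 to 3 from left to right and a line for the group mean. MRPL33, MRPL53, MRPS14, MRPS18C and MRPS21 lie below control in every treated library, and MRPL38, MRPS2 and MRPS30 lie above control in every treated library.

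In the small subunit, 6 of 16 genes with a bacterial counterpart were lower and 3 higher at 240 ug/ml, beside 23.5% and 19.7% of all genes. Their median change was -0.26. Without the second library at that dose, 4 were lower and 3 higher, beside 19.7% and 16.4% of all genes. With equal totals, 2 were lower and 6 higher, beside 9.02% and 43.3% of all genes. MRPS21 was the lowest of them. It was at 114.0, 107.3 and 107.0 in control, 74.4, 79.9 and 74.2 at 60 ug/ml, then 60.3, 59.3 and 69.5 at 120 ug/ml, and lastly 72.0, 49.6 and 60.4 at 240 ug/ml. No treated library reached the control range. Its change was -0.52 (SE 0.12, adjusted p = 0.0104) at 60 ug/ml, -0.79 (SE 0.12, adjusted p = 0.000396) at 120 ug/ml and -0.86 (SE 0.12, adjusted p = 0.000169) at 240 ug/ml, and like MRPL33 it was called at each dose under all 22 alternatives. MRPS21 lies at chr1:150293720-150308979 on GRCh38, and no annotated gene overlaps it on the other strand.

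MRPS14, a protein of the small subunit head, was at 22.9, 26.2 and 26.3 in control, 15.4, 17.5 and 17.6 at 60 ug/ml, then 12.5, 12.4 and 16.7 at 120 ug/ml, and lastly 16.4, 11.2 and 15.4 at 240 ug/ml. The change was -0.55 (SE 0.14, adjusted p = 0.0212) at 60 ug/ml, -0.82 (SE 0.14, adjusted p = 0.00116) at 120 ug/ml and -0.78 (SE 0.14, adjusted p = 0.00120) at 240 ug/ml. The calls at the upper doses held under all 22 alternatives, and the call at 60 ug/ml was lost with equal totals (-0.35) and without the second or the third control library or the first library at 60 ug/ml. Only 48.0% of its control signal came from a protein-coding transcript, the rest from one annotated for nonsense-mediated decay, and both were lower: MRPS14-202 (coding) went from 11.2, 12.9 and 12.1 to 8.5, 7.3 and 8.3 at 240 ug/ml, and MRPS14-201 from 11.7, 13.3 and 14.2 to 7.6, 3.9 and 7.1.

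MRPS12, which lines the decoding centre, was higher at 60 ug/ml, at 52.9, 51.6 and 56.0 after 42.1, 47.3 and 36.6 in control (0.35, SE 0.11, adjusted p = 0.0407). It was at 44.7, 35.4 and 40.2 at 240 ug/ml, overlapping control. The rise was lost when the first or the third control library, any library at 60 ug/ml, the first or the second at 120 ug/ml or the third at 240 ug/ml was left out.

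MRPS2, a protein of the small subunit near the mRNA exit, was higher at every dose. It was at 84.0, 78.2 and 72.6 in control, 96.4, 93.4 and 110.5 at 60 ug/ml, then 98.9, 98.2 and 106.3 at 120 ug/ml, and lastly 103.0, 95.3 and 101.4 at 240 ug/ml, with no overlap with control. The change was 0.35 (SE 0.08, adjusted p = 0.0132), 0.37 (SE 0.08, adjusted p = 0.00484) and 0.35 (SE 0.08, adjusted p = 0.00514) at the rising doses, and the call at 60 ug/ml was lost without the third control library. When only protein-coding transcripts were summed, the call at 240 ug/ml was lost (adjusted p = 0.0853). MRPS2-206, a transcript without a coding sequence, was at 5.0, 5.7 and 5.1 in the control libraries and 11.4, 13.3 and 13.2 at 240 ug/ml, while the coding MRPS2-201 was at 72.0, 68.6 and 60.4 and then at 79.2, 72.1 and 78.7.

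MRPS5 and MRPS9 were called higher at 240 ug/ml and at no other dose. MRPS9 was at 37.4, 39.1 and 37.8 in the control libraries and at 50.2, 45.2 and 54.4 at 240 ug/ml (0.38, SE 0.11, adjusted p = 0.0157), a call that was lost without the third library at 240 ug/ml. MRPS5, which helps to form the mRNA entrance, was at 26.2, 28.3 and 27.6 in the control libraries and 40.3, 32.8 and 39.7 at 240 ug/ml (0.44, SE 0.14, adjusted p = 0.0234). It was the highest change of all 77 genes at this dose, but the main coding transcript and one that retains an intron differed. MRPS5-201, the coding transcript, was at 15, 15.7 and 16.6 in the control libraries and 18.9, 12.4 and 17.7 at 240 ug/ml, and these groups overlapped. MRPS5-207, which retains an intron, was at 5.7, 7.2 and 5.6 in control, 3.1, 4.4 and 12 at 60 ug/ml, then 8.4, 10.7 and 11.5 at 120 ug/ml, and lastly 15.4, 12.6 and 15.4 at 240 ug/ml. The coding share of the gene was 57.6% in the control libraries and 43.4% at 240 ug/ml, and the gene was not called from coding transcripts alone. The call from all transcripts was lost without the first or the third library of control or of 240 ug/ml.

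Of the small subunit genes found only in mitochondria, limma called 1 of 10 lower and 0 higher at 240 ug/ml (1 at an unadjusted p under 0.05). Over all genes 23.5% were lower and 19.7% higher. Without the second library at that dose none was called, where 19.7% of all genes were lower and 16.4% higher. With equal totals, 0 were lower and 7 higher, beside 9.02% and 43.3% of all genes. The difference between the classes was not tested. The gene called lower on the deposited scale, MRPS33, was at 94.0, 90.8 and 81.6 in the control libraries and 69.9, 41.2 and 64.3 at 240 ug/ml. Its change was -0.63 (SE 0.23, adjusted p = 0.0425). This call was lost without any 1 control library, and also without the second library at 60, the first at 120 or the second or the third at 240 ug/ml. It also ended with equal totals (-0.20), with no filter on low values and with the length trend subtracted, alone or with the replicate block. MRPS26 was higher at 60 ug/ml, at 84.0, 79.3 and 89.7 after 60.0, 72.6 and 61.1 in control (0.38, SE 0.10, adjusted p = 0.0171), and was not called at the upper doses. That call was lost without the first or the third library of either group. MRPS22 was not called at any dose.

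The human genome has 3 genes descended from the bacterial protein S18, whose products take different places in the ribosome. Despite this descent, MRPS18A and MRPS18B were counted above in the classes found only in mitochondria. MRPS18C, which occupies the bacterial position in the small subunit, was lower at all 3 doses on the deposited scale. It was at 40.3, 45.0 and 43.4 in control, 25.3, 28.7 and 29.7 at 60 ug/ml, then 29.4, 26.8 and 37.5 at 120 ug/ml, and lastly 35.7, 25.1 and 36.3 at 240 ug/ml. Its change was -0.60 (adjusted p = 0.0157), -0.46 (adjusted p = 0.0303) and -0.41 (adjusted p = 0.0411), and with equal totals the last became 0.01 and that at 120 ug/ml -0.10, neither called. MRPS18A, which sits in the large subunit, was not called at 60 ug/ml (0.02) but was lower at 120 ug/ml (-0.39, adjusted p = 0.0350, and -0.03 with equal totals) and at 240 ug/ml (-0.38, adjusted p = 0.0362, and 0.04 with equal totals). It was at 55.1, 53.9 and 47.9 in the control libraries and at 47.6, 32.9 and 40.6 at 240 ug/ml. MRPS18B, another small subunit copy, was at 65.8 ± 5.02 in the control libraries and 68.7 ± 8.59 at 240 ug/ml and was not called at any dose. At each dose 1 of the 22 alternatives called it higher, and its change at 240 ug/ml ran up to 0.48 over them. The calls of MRPS18A and MRPS18C at 240 ug/ml were lost without the second library at that dose or without the first or the second control library. That of MRPS18A was also lost without the third library at 240 ug/ml, and that of MRPS18C without the third control library, the second at 60 or the first at 120 ug/ml. Of the 22 alternatives, 12 kept the call of MRPS18A at 240 ug/ml and 11 that of MRPS18C. The difference between the 3 copies was not tested.

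MRPS36 was lower at all 3 doses, from 15.5, 14.9 and 13.9 in control to 7.9, 11.3 and 8.8 at 60 ug/ml, then 8.8, 7.2 and 13.6 at 120 ug/ml, and lastly 10.2, 9.4 and 10.6 at 240 ug/ml. No treated library reached control. Its changes were -0.62 (adjusted p = 0.0346), -0.58 (adjusted p = 0.0272) and -0.51 (adjusted p = 0.0405). At 60 ug/ml the call was lost without any 1 control library or the first or the third at 60 ug/ml. It was also lost there with no filter on low values or with the GC trend subtracted. At 120 ug/ml it was lost without the first or the second library of control or of 120 ug/ml. At 240 ug/ml it was lost without any 1 library of control or of 240 ug/ml, or the first at 120 ug/ml. No filter, and the length trend subtracted with or without the replicate block, ended its calls at 120 and 240 ug/ml. With equal totals its changes were -0.43, -0.24 and -0.11, none of them called. MRPL33, MRPS14, MRPS18C, MRPS21 and MRPS36 were the 5 genes lower at all 3 doses, and MRPL38 and MRPS2 were the 2 higher at all 3, on the deposited scale. The share of all genes called at all 3 doses was not counted.

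Transcript composition and length went with the changes across the set. At 60 ug/ml the 6 genes called higher (MRPL4, MRPL12, MRPL38, MRPS2, MRPS12 and MRPS26) had a transcript GC content of 60.4% to 64.6%, and the 8 called lower had 35.9% to 48.9%, so the 2 classes did not overlap. Across the 77 genes, Pearson's r between the log2 change at 60 ug/ml and GC content was 0.67 (Spearman's rho 0.68). Across 12723 protein-coding genes r was 0.36. At 240 ug/ml r with GC content was -0.05 over the 77. When the trend with GC was subtracted from each library, all 6 calls of higher genes at 60 ug/ml were lost, 1 other gene (MRPS30) was called higher, and 4 were lower. Genes of a sample share its library and are not independent, so these correlations are descriptions. Whether GC content itself set the calls was not tested beyond that subtraction.

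Length was related to the change at the top dose instead, with r of 0.36 across the 77 genes and 0.32 across protein-coding genes. Split by length into 3 classes, 10 of the 26 shortest were lower and 0 higher at 240 ug/ml, with a median of -0.37. Of the 25 in the middle class, 10 were lower and 0 higher, with a median of -0.28. Of the 26 longest, 4 were lower and 5 higher, with a median of -0.04. Other protein-coding genes in the range of the shortest class (192 to 1030 bases) had a median of -0.47, and 51.0% of those 1269 genes were lower. Those in the middle range had a median of -0.26, with 40.5% lower and 9.12% higher, beside 40% and 0% of the set. In the longest range the median was 0.03, with 22.2% lower and 27.3% higher, beside 15.4% and 19.2% of the set. With the trend on length subtracted, 12 of the 77 were lower and 10 higher at 240 ug/ml, in place of 24 and 5, beside 23.1% and 17.6% of all genes. Those mRNAs are short as a class, with a median of 1025 bases for the large subunit genes with a bacterial counterpart.

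**Figure D4:**
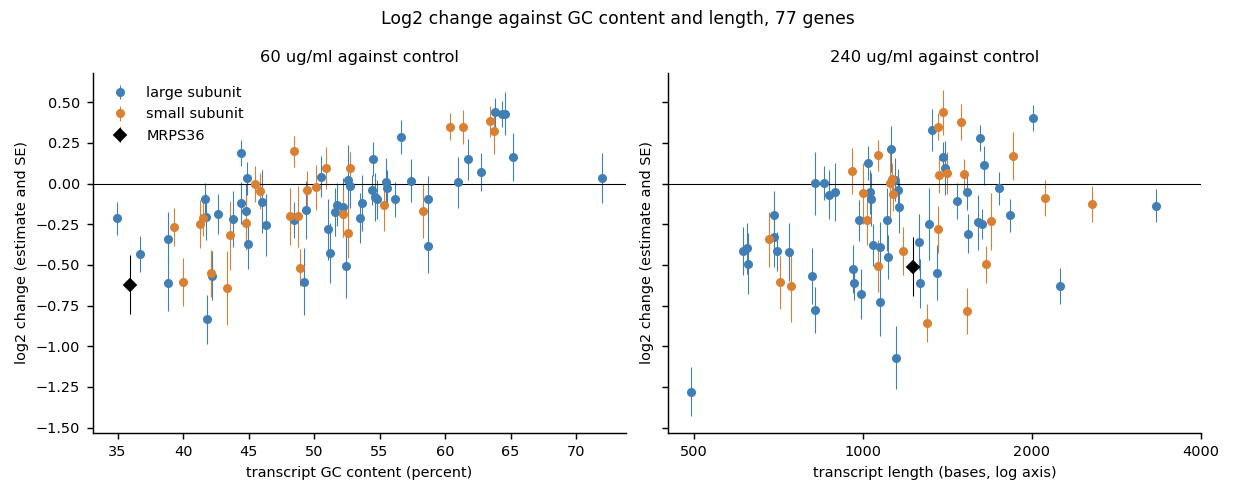
Log2 change against control with its SE (y axes) for the 77 genes, at 60 ug/ml against transcript GC content in percent (left) and at 240 ug/ml against transcript length in bases on a log axis (right), coloured by subunit. The change at 60 ug/ml rises with GC content (r = 0.67), and MRPL33, the shortest at 494 bases, has the lowest change at 240 ug/ml.

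The median over these genes of the share from protein-coding transcripts was 97.1% ± 0.125 for control and 96.2% ± 0.879 at 240 ug/ml. Transcripts with a retained intron made up 3.58% ± 0.15 in the control libraries and 4.10% ± 0.199 at 240 ug/ml, where the lowest treated library (3.95%) was above the highest of control (3.74%). With coding transcripts alone, 29 of the 77 were lower and 5 higher at 240 ug/ml. Over the 12168 genes tested in that run, 30.4% were lower and 23.3% higher. Loss of coding share was largest in MRPS25, a small subunit protein whose coding share was 60.9% in the control libraries and 40.3% at 240 ug/ml while the gene's sum was not called (0.06, adjusted p = 0.728). The largest gain was in MRPL10, from 76.9% to 89.4%. These 2 genes and MRPS5-207 were chosen after their values were seen.

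Many of these genes start beside another gene. A protein-coding gene on the other strand begins at the start or within 1000 bases upstream of it for 17 of the 78 (21.8%). The same holds for 7.37% of all 19969 annotated protein-coding genes. Genes on the other strand that begin downstream of the start, so that the pair overlaps, were not counted. One such pair is made of 2 of the genes themselves: MRPL46 and MRPS11 start 34 bases apart on chromosome 15. MRPL46 was at 18.1, 20.7 and 16.7 in the control libraries and 13.9, 11.3 and 14.7 at 240 ug/ml (-0.45, adjusted p = 0.0178). MRPS11 was at 38.7, 41.2 and 40.3 in the control libraries and 33.9, 20.1 and 31.6 at 240 ug/ml (-0.51, adjusted p = 0.0231). Both were lower at 240 ug/ml and called at no other dose, and both calls ended with equal totals (-0.05 for MRPL46 and -0.09 for MRPS11), with the length trend subtracted, and without the second library of control or of 240 ug/ml. The call of MRPS11 was also lost without the third control library, and protein-coding transcripts gave only 21.2% of its control signal. Other partners include NDUFS6 beside MRPL36 and NDUFB5 beside MRPL47, both of which encode subunits of respiratory complex I. In all, 38 of the 78 genes are overlapped by an annotated gene on the other strand, among them MRPL11, MRPL33, MRPL51, MRPS14 and MRPS18C. The libraries mark strand with dUTP, but the strand setting of the quantification is not given, so reads of such pairs may not have been kept apart.

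Nuclear genes of the mitochondrial ribosome are known to carry sites for a few general transcription factors in their promoters. RefSeq promoter windows on GRCh38.p14, from 250 bases before to 50 bases after the start, were found for 69 of the 78 genes and were searched on both strands. The ETS core CCGGAAG occurred in 29 of the 69 (42.0%) and in 10.7% of all 27305 promoters. The YY1 word AAGATGGC occurred in 20 (29%) and in 3.03% of all, and the NRF1 word CATGCGC in 7 (10.1%) and in 4.67% of all. No promoter of the set held the ETS and YY1 words overlapping each other. The 23 genes called lower at 240 ug/ml that have a promoter window held the ETS core in 12, the 5 called higher in 1, and the 40 not called in 16. Windows of 30 bases around the site nearest to the start are shown for the named genes called at 240 ug/ml that hold one, because genes that fell and a gene that rose carry the same word. Capitals mark the word on the gene's strand, where CTTCCGG is the ETS core and GCGCATG the NRF1 word read from the other strand.
MRPL33, lower, ETS at chr2:27771700-27771729 (+): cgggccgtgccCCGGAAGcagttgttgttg
MRPL53, lower, ETS at chr2:74472662-74472691 (-): ctgcacgagttCTTCCGGggcggaggtcac
MRPS21, lower, ETS at chr1:150293839-150293868 (+): cgtaatttccgCTTCCGGtagtgagaaccc
MRPS33, lower, ETS at chr7:141014934-141014963 (-): agagggcgggcCTTCCGGgacgagggcgcg
MRPS18A, lower, ETS at chr6:43687804-43687833 (-): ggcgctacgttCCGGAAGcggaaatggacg
MRPL51, lower, ETS at chr12:6493348-6493377 (-): cggcaggcggaCCGGAAGcactgaggcggg
MRPS18C, lower, ETS at chr4:83455825-83455854 (+): gggctcgcggaCCGGAAGcacgcataaact
MRPS18C, lower, NRF1 at chr4:83455911-83455940 (+): agaaaggtgctGCGCATGcgtattgaaaaa
MRPL51, lower, YY1 at chr12:6493223-6493252 (-): gggtaaggcccAAGATGGCtgtcttcgcct
MRPL38, higher, ETS at chr17:75905074-75905103 (-): tccaacgggcaCTTCCGGagccgggcgtct
MRPL38, higher, YY1 at chr17:75904860-75904889 (-): aggccggagggAAGATGGCggcgccctggt
MRPS30, higher, YY1 at chr5:44808949-44808978 (+): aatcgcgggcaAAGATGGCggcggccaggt
MRPS18A, lower, YY1 at chr6:43687764-43687793 (-): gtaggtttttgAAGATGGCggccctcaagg

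Starts here are those of the RefSeq promoter windows, and that of MRPS21 lies inside the annotated gene span given above. In MRPL33, MRPL53, MRPS21 and MRPS33 the ETS core lies at or close to this start. It begins at the start in MRPL53 and MRPS33, 8 bases before it in MRPL33 and 11 before it in MRPS21. In MRPL38 it lies 208 bases before the start. The YY1 words of MRPL38, MRPS18A and MRPS30 begin 6, 9 and 13 bases after it. MRPS14, MRPL11, MRPL57, MRPS2, MRPS5 and MRPS9, which were also called at 240 ug/ml, held none of the 3 words in their windows. Each match is a description of letters and not of a bound site.

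By median change at 240 ug/ml on the deposited scale, the mitochondrial ribosomal protein genes lay between the cytosolic ribosome and the factors that build and serve the mitochondrial ribosome. Without the second library at that dose their median was -0.06. Median transcript length was 695 bases for the cytosolic ribosome, 792 for the respiratory chain and 1142 for these genes, rising with their median changes. It was 1850 for assembly factors and 1947 for translation factors, whose median changes of 0.12 and -0.03 stood in the opposite order. Whether length sets the order was not tested. Over all genes tested, 23.5% were lower and 19.7% higher at this dose, the background for the counts of these lists. Of 87 tested genes of the cytosolic ribosome, 85 were lower and 1 higher at 240 ug/ml, with a median of -1.14. Of 81 nuclear genes of the respiratory chain, 57 were lower and 2 higher, with a median of -0.79. RPS20, a cytosolic small subunit protein, was at 4658.2, 4423.3 and 3833.4 in the control libraries and 1619.7, 863.7 and 1266.5 at 240 ug/ml (-1.82, SE 0.25, adjusted p = 0.000183). COX7C, a small subunit of cytochrome c oxidase, was at 905.2, 805.5 and 736.2 in the control libraries and 336.1, 179.4 and 270.4 at 240 ug/ml (-1.68, SE 0.23, adjusted p = 0.000194). MRPL33 had the change nearest to these among the mitochondrial ribosomal genes.

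Assembly factors of the mitochondrial ribosome had 2 lower and 9 higher of 25 at 240 ug/ml (8% and 36%), beside 23.5% and 19.7% of all genes. Their median was 0.12. TFB1M, the methyltransferase that modifies the small subunit RNA, was at 17.6, 16.5 and 16.1 in the control libraries and 28.8, 29.6 and 25.8 at 240 ug/ml (0.71, SE 0.14, adjusted p = 0.00154). FASTKD2, an RNA-binding protein needed for the large subunit RNA, was at 22.5, 21.4 and 22.2 and then at 36.0, 33.6 and 36.6 (0.66, SE 0.09, adjusted p = 0.000169). YBEY, an endoribonuclease, was lower, at 19.2, 26.5 and 19.9 in the control libraries and 14.1, 11.8 and 13.9 at 240 ug/ml (-0.67, SE 0.15, adjusted p = 0.00367). Its call ended with equal totals, and those of TFB1M and FASTKD2 did not. MALSU1, which keeps the subunits apart during assembly, was also lower (-0.48, adjusted p = 0.0192), a call lost with equal totals (-0.06), from coding transcripts alone and without the second library of control or of 240 ug/ml.

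Among 18 translation factors of mitochondria, 1 was lower and 4 higher at 240 ug/ml (5.56% and 22.2%), beside 23.5% and 19.7% of all genes. Their median was -0.03. The initiation factors parted: MTIF2 was at 26.6, 22.3 and 26.3 in the control libraries and 38.3, 40.5 and 47.3 at 240 ug/ml (0.72, SE 0.13, adjusted p = 0.000969), and MTIF3 was at 30.3, 33.7 and 24.7 and then at 18.4, 18.7 and 20.3 (-0.59, SE 0.13, adjusted p = 0.00432). GUF1, a ribosome-bound GTPase, was higher (0.73, SE 0.14, adjusted p = 0.00126). Mitochondrial transcription and RNA handling had 2 lower and 8 higher of 16 (12.5% and 50%), beside the same shares of all genes. The highest change was that of POLRMT, the RNA polymerase of mitochondria. It was at 25, 22.9 and 24.8 in the control libraries and 52.2, 68.8 and 44.2 at 240 ug/ml (1.13, SE 0.15, adjusted p = 0.000130). PNPT1, an exoribonuclease, was also higher (0.79, adjusted p = 0.00193), though not from coding transcripts alone. HSD17B10, a subunit of mitochondrial RNase P (-0.62, adjusted p = 0.00333), and SLIRP, an RNA-binding protein (-0.61, adjusted p = 0.0288), were lower, and the call of SLIRP was lost without the first or the second control library or the second at 240 ug/ml. The MTIF3, HSD17B10 and SLIRP calls ended with equal totals.

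Of the 13 mRNAs that the mitochondrial ribosome translates, 6 were called lower at the top dose (46.2%) and 0 higher, with a median of -0.69. Over all genes 23.5% were lower and 19.7% higher. MT-CO3, a subunit of cytochrome c oxidase, was at 25821.7, 21917.7 and 23542.3 in the control libraries and 10019.9, 6741.6 and 8563.9 at 240 ug/ml (-1.51, SE 0.26, adjusted p = 0.000842). MT-ND3, a subunit of complex I, changed by -1.34 (SE 0.31, adjusted p = 0.00490). Import components and chaperones of mitochondria had 5 lower and 7 higher of 25 at 240 ug/ml (20% and 28%), beside those shares of all genes. TOMM7, a small subunit of the outer membrane translocase, was the lowest (-1.53, SE 0.17, adjusted p = 5.55e-05), followed by TIMM8B, a small chaperone of the intermembrane space (-0.89, SE 0.21, adjusted p = 0.00569). LONP1, a protease of the matrix (0.79, SE 0.08, adjusted p = 4.18e-05), and HSPD1, the matrix chaperonin (0.77, SE 0.15, adjusted p = 0.00176), were higher.

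Of 12 regulators of nuclear genes for mitochondria, 1 was lower and 7 higher at 240 ug/ml (8.33% and 58.3%), beside 23.5% and 19.7% of all genes. PPRC1, a coactivator related to PGC-1, was at 41.2, 44.7 and 43.6 in the control libraries and 74.8, 95.2 and 79.4 at 240 ug/ml (0.92, SE 0.09, adjusted p = 3.48e-05), and MYC, a general growth regulator, was at 176.0, 176.6 and 164.8 and then at 275.3, 296.2 and 276.8 (0.71, SE 0.09, adjusted p = 0.000113). PPARGC1A, which encodes PGC-1alpha, was lower (-0.55, SE 0.13, adjusted p = 0.00606) at values of 4.0 to 8.2 in the 2 groups, a call that ended with equal totals. The list of mitochondrial ribosomal proteins under other names had 1 lower, CHCHD1 (-0.82, adjusted p = 0.00545), and 1 higher, PTCD3 (0.18, adjusted p = 0.0464), of 5. That is 20% each way, near the shares of all genes. The call of PTCD3 was lost without 1 library in 10 of 12 cases, and that of CHCHD1 ended with equal totals. DAP3, the GTP-binding protein of the small subunit, was at 134 ± 6.58 in the control libraries and 132 ± 13.2 at 240 ug/ml and was not called.

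**Figure D5:**
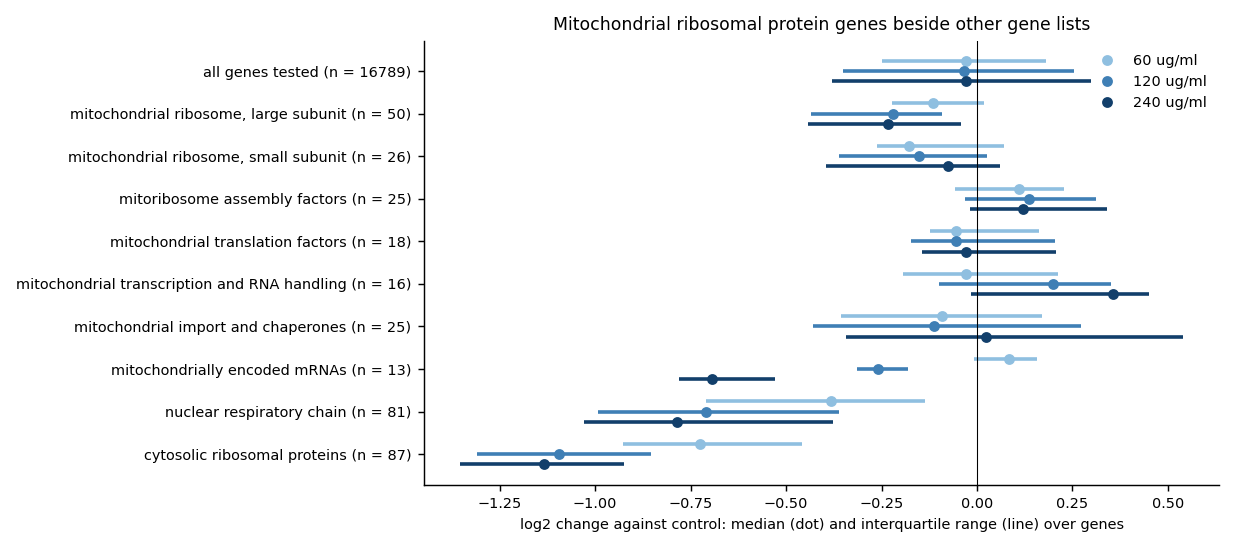
Median (dot) and interquartile range over genes (line) of the log2 change against control (x axis) for the 2 subunits of the mitochondrial ribosome, 7 related gene lists and all 16789 genes tested, at 60, 120 and 240 ug/ml. Cytosolic ribosomal proteins lie lowest, with a median of -1.14 at 240 ug/ml, the large subunit of the mitochondrial ribosome is at -0.23 and the small subunit at -0.08, and assembly factors lie at 0.12.

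Fibroblast markers summed to 246.9 to 342.3 in the control libraries and 38.8 to 65.9 at 240 ug/ml, with 4 of 7 at a control mean of at least 1 and COL1A2 at 0 throughout. Leukocyte markers summed to 110.9 to 140.7 in the control libraries and 72.8 to 99.7 at 240 ug/ml, carried by CD68, with PTPRC and CD3E at 0. Endothelial markers summed to at most 0.4 in any library. Their part in the changes above was not tested.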

How the data were processed

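HK-2 libraries from 4 groups of 3 (12 in all) were compared. Per the labels' protocols, poly(A) RNA was sequenced paired-end after dUTP second-strand marking. The authors deposited 1 signal value for each of 267165 transcripts per library, to 1 decimal. The submitters' processing notes name GRCh38.p14. For the aligner, quantifier and strand setting, the sources used here give nothing. Values had decimals, and their totals have a geometric mean of 999925, so they were treated as normalized signal of TPM kind. Depth is unknown, and no counting interval could be given.

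Transcripts were matched to GENCODE release 29 (202305, 75.7%, holding 93.8% to 94.7% of each library's signal) and summed per gene. A gene's sum can miss unmatched transcripts. Genes reaching 1 in 3 or more libraries (16789) were fitted with limma-trend 3.58.1 (R 4.3.3) on log2(value + 1), with 1 mean per group, no block, and two-sided Benjamini-Hochberg values over all genes at 0.05. The scale understates changes of low genes. The design's count test did not apply, so its stated fallback was used. The script was tested on simulated data. Length and GC content are means over transcripts weighted by level.

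The genes and lists were chosen with earlier results of these data known. Named genes are the 4 lowest and 4 highest changes at each dose, the 3 highest and 3 lowest mean levels, up to 3 called per dose step, the S18 copies, the stalk, MRPS12, MRPL45, MRPL58 and MRPS36, and of each other list the 2 lowest and 2 highest called at 240 ug/ml. Alternatives are given in the closing section.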

Additional observations from a re-analysis of the deposited data

How the results depend on the processing

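Alternatives were a pseudocount of 0.5, no filter, equal library totals, quantile normalization, subtraction of the length or GC trend, the replicate number as a block (alone and with the length trend), protein-coding transcripts only, and leaving out each library. Leaving out the third library at 120 and the second at 240 ug/ml together was added after seeing the data. DESeq2 was not run because the table holds no counts. Genes lower at 60 ug/ml numbered 5 with no filter, 3 with equal totals, 4 with the GC trend subtracted and 16 with both libraries out (2 to 10 leaving out 1 library), in place of 8. Genes higher at 60 ug/ml numbered 13 with equal totals and 1 with the GC trend subtracted (2 to 8 leaving out 1), in place of 6. Lower at 120 ug/ml, in place of 19, were 10 with no filter, 4 with equal totals, 10 with the length trend subtracted and 41 with both libraries out (7 to 31 leaving out 1). Higher at 120 ug/ml, in place of 4, were 18 with equal totals, 7 with quantile normalization, 9 with the length trend subtracted and 11 with the replicate block and length trend (3 to 4 leaving out 1). Lower at 240 ug/ml, in place of 24, were 5 with equal totals, 12 with the length trend subtracted and 15 with the replicate block and length trend (13 to 28 leaving out 1). Higher at 240 ug/ml, in place of 5, were 30 with equal totals, 8 with quantile normalization and 10 with the length trend subtracted, alone or with the block (3 to 7 leaving out 1). From 60 to 120 ug/ml, in place of 0, the replicate block gave 1 lower and 2 higher, the block with the length trend 3 higher, quantile normalization 1 higher and both libraries out 13 lower (0 to 2 lower and 0 to 3 higher leaving out 1). From 120 to 240 ug/ml the count was 0 in both directions in every run. The F statistic called 16 with no filter and 55 with both libraries out, in place of 31 (17 to 44 leaving out 1). With equal totals the median change was 0.0702, 0.15 and 0.20 at the rising doses, and the summed level was 1.05, 1.07 and 1.10 times control, in place of 0.906, 0.828 and 0.821. Leaving out 1 library, the median ran from -0.20 to -0.10 at 60, -0.35 to -0.13 at 120 and -0.28 to -0.06 at 240 ug/ml. The sources of these shifts were not tested, except that no filter adds genes to the adjustment.

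Same-numbered libraries do not share a stated batch. Their deviations over all genes correlated weakly (18 pairs, r from -0.02 to 0.24, median 0.06, 6 above 0.1). Over 36 pairs of different numbers the median was -0.04, with 1 above 0.1. The main fit did not treat the numbers as pairing, and a block on them was run as an alternative. What the same-numbered libraries share was not tested. With the replicate block alone, 12, 22 and 26 genes were lower and 7, 5 and 6 higher at the rising doses, and 34 passed the F statistic. Of 110 changes of named genes, 102 kept their call and direction with the block, 110 with a pseudocount of 0.5, 103 with quantile normalization and 69 with equal totals. With equal totals at 240 ug/ml, MRPL12 was 0.37, MRPL58 0.35 and MRPS12 0.36 (now higher), MRPS18A 0.0433 and MRPS18C 0.00651. With coding transcripts alone, NDUFV3 was -0.0242 after a called 0.30. Read depth is unknown, so what it limits could not be given, and genes at low values such as MRPS36 and MRPL57 carry rounding to 1 decimal.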
